A study of Mus musculus with 6 samples.

Results

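The genes described here are the 41 members of a stress and amino acid supply module, matched by gene symbol among the 35976 rows of a table of normalized counts from primary mouse adipocytes. They comprise transcription factor ATF4, other regulators and outputs of the integrated stress response, enzymes that make amino acids and one-carbon units, amino acid transporters, and cytosolic aminoacyl-tRNA synthetases. The module was named from known function, but its members were chosen with earlier results of these data known. All 41 symbols were found, each in 1 row, and all 41 passed the filter on low values (10 normalized counts or more in 2 or more of the 6 libraries).

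All cells carried Ppargc1a(fl/fl), in which loxP sites flank Ppargc1a, the gene of the mitochondrial coactivator PGC-1alpha. The groups were Cre adenovirus with an siRNA against Rbm43, GFP adenovirus with the Rbm43 siRNA, and GFP adenovirus with a control siRNA, each with 2 libraries and each harvested after full differentiation. Cre recombinase, supplied by the virus, excises the floxed DNA, and Rbm43 encodes an RNA-binding protein. The submitters call the libraries biological duplicates; no animal or culture is named, so p-values measure the spread between these libraries, which may be technical. Cells given Cre virus and the control siRNA were not analysed here, so the effect of Cre virus was read in the presence of Rbm43 siRNA only.

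The integrated stress response is a switch on protein synthesis. Kinases that sense amino acid shortage, misfolded protein, double-stranded RNA or heme deficiency phosphorylate the initiation factor eIF2. Global initiation then falls, while the mRNA of Atf4 is translated better through its upstream open reading frames. ATF4 protein pairs with C/EBP-family partners such as CEBPG and binds C/EBP-ATF response elements in genes for amino acid uptake, amino acid synthesis and tRNA charging. Because ATF4 is set largely at translation, its mRNA level is only a partial readout of its activity. In fat, mitochondrial stress is known to engage this pathway, and Fgf21 and Gdf15 are its secreted outputs.

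The response element was searched for in the members' promoters, because it is the sequence through which ATF4 is known to act and many members moved together. The motif was TGATGNAA on either strand, where N is any base, in RefSeq windows of 300 bases (250 before to 50 after the start, GRCm38.p6). Windows were found for 34 members, and 14 of these (41.2%) held at least 1 match. Among all 27025 genes with windows, 4.51% did. The list includes known targets of ATF4, so its higher share follows in part from how the list was made. It says nothing about ATF4 activity in these cells. Of 16 matches in members, 12 read TGATGCAA. A match describes the letters and not a bound site. Sites of 8 of the members with a match whose mRNA changed with Rbm43 siRNA are shown on the gene's strand, 5′ to 3′, with the matches in capitals. A match on the opposite strand appears as its reverse complement (TTGCATCA for TGATGCAA).

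Slc7a11 (chr3:50443642-50443690, minus strand): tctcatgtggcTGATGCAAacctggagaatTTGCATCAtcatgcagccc
Trib3 (chr2:152344028-152344057, minus strand): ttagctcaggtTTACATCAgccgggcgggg
Chac1 (chr2:119351038-119351067, plus strand): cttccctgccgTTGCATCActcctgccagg
Asns (chr6:7693214-7693243, minus strand): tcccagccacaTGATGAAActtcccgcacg
Pycr1 (chr11:120643833-120643862, minus strand): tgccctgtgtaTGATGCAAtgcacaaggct
Nupr1 (chr7:126625562-126625591, minus strand): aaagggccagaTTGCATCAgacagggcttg
Iars (chr13:49682126-49682155, plus strand): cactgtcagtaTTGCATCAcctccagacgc
Vldlr (chr19:27216809-27216838, plus strand): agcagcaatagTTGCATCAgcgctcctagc

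Slc7a11 carried a pair of matches in opposite orientation, beginning 66 and 47 bases before the RefSeq start. The match of Trib3 begins 14 bases after its RefSeq start, and that of Iars 7 bases after its own. Gene positions given below are from GENCODE, where starts can differ.

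Libraries held 15775398 to 21961724 reads in genes. Rbm43 had 53.8 and 32.5 normalized counts with Cre virus and Rbm43 siRNA, 43.7 and 46.6 with GFP virus and Rbm43 siRNA, and 185 and 224 with control siRNA, which puts the knockdown on the side the labels give. Ppargc1a had 463 and 469 normalized counts with Cre virus and Rbm43 siRNA, 399 and 423 with GFP virus and Rbm43 siRNA, and 163 and 202 with control siRNA. It was therefore not lower in the libraries labelled Cre virus, and a count over the whole gene does not check excision. Adipocyte markers such as Adipoq (18218 to 23077 normalized counts over the libraries) were abundant, and no marker examined was at 0 in any library.

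Some markers listed for other cells were abundant too, among them the preadipocyte gene Pdgfra (6579 to 6977) and the mural gene Acta2 (30048 to 44276). Others of the same lists were low: Dpp4 (5.2 to 11.7), Pi16 (14.1 to 20.6), Dlk1 (23.1 to 42.7) and Rgs5 (9.7 to 36.2). Sums over 7 preadipocyte markers overlapped, at 26552 to 27257 with Cre virus and Rbm43 siRNA, 25377 to 27123 with GFP virus and Rbm43 siRNA, and 25774 to 27562 with control siRNA. Summed over 10 adipocyte markers the level was 313759 to 315728 with Cre virus and Rbm43 siRNA, 363993 to 372456 with GFP virus and Rbm43 siRNA, and 276068 to 293415 with control siRNA. Sums over 7 mural markers were 76112 to 79429 with Cre virus and Rbm43 siRNA, 63926 to 66843 with GFP virus and Rbm43 siRNA, and 57655 to 63105 with control siRNA. Sums over 10 macrophage markers were 1748 to 1843 with Cre virus and Rbm43 siRNA, 1513 to 1757 with GFP virus and Rbm43 siRNA, and 1765 to 1803 with control siRNA. In these bulk samples fewer cells of a type and less RNA per cell cannot be told apart. Sums over 6 endothelial markers were 311 to 348 with Cre virus and Rbm43 siRNA, 274 to 278 with GFP virus and Rbm43 siRNA, and 246 to 248 with control siRNA, with the groups apart in all 3 comparisons. The marker with the highest level in these sums was Kdr (96.2 to 160). Tek and Emcn went the other way for Cre against GFP virus, with the groups apart. The part of these marker levels in the results below was not tested.

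Most of the module was lower with Rbm43 siRNA than with control siRNA in cells that had GFP virus. By limma (3301 genes called in all, 23.2% of those tested), 23 of 41 members fell (56.1%) and 2 rose (4.88%), against 9.76% of all 14211 genes tested that fell and 13.5% that rose. The cystine transporter gene Slc7a11 and the pseudokinase gene Trib3 fell most, and Vldlr and Ddit4 were the members that rose. The median log2 fold change was −0.20, against −0.01 over all genes tested. Both Rbm43 siRNA libraries lay below both control libraries for 28 members (68.3%), where 29.2% of all genes did. Changes were small: among the 25 members called, the absolute log2 fold change was 0.16 to 0.83 with a median of 0.29, and 2 exceeded 0.5. In this comparison 8 of 10 adipocyte markers rose and 1 fell, 3 of 7 mural markers rose and 1 fell, and 3 of 10 macrophage markers fell.

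**Figure D1:**
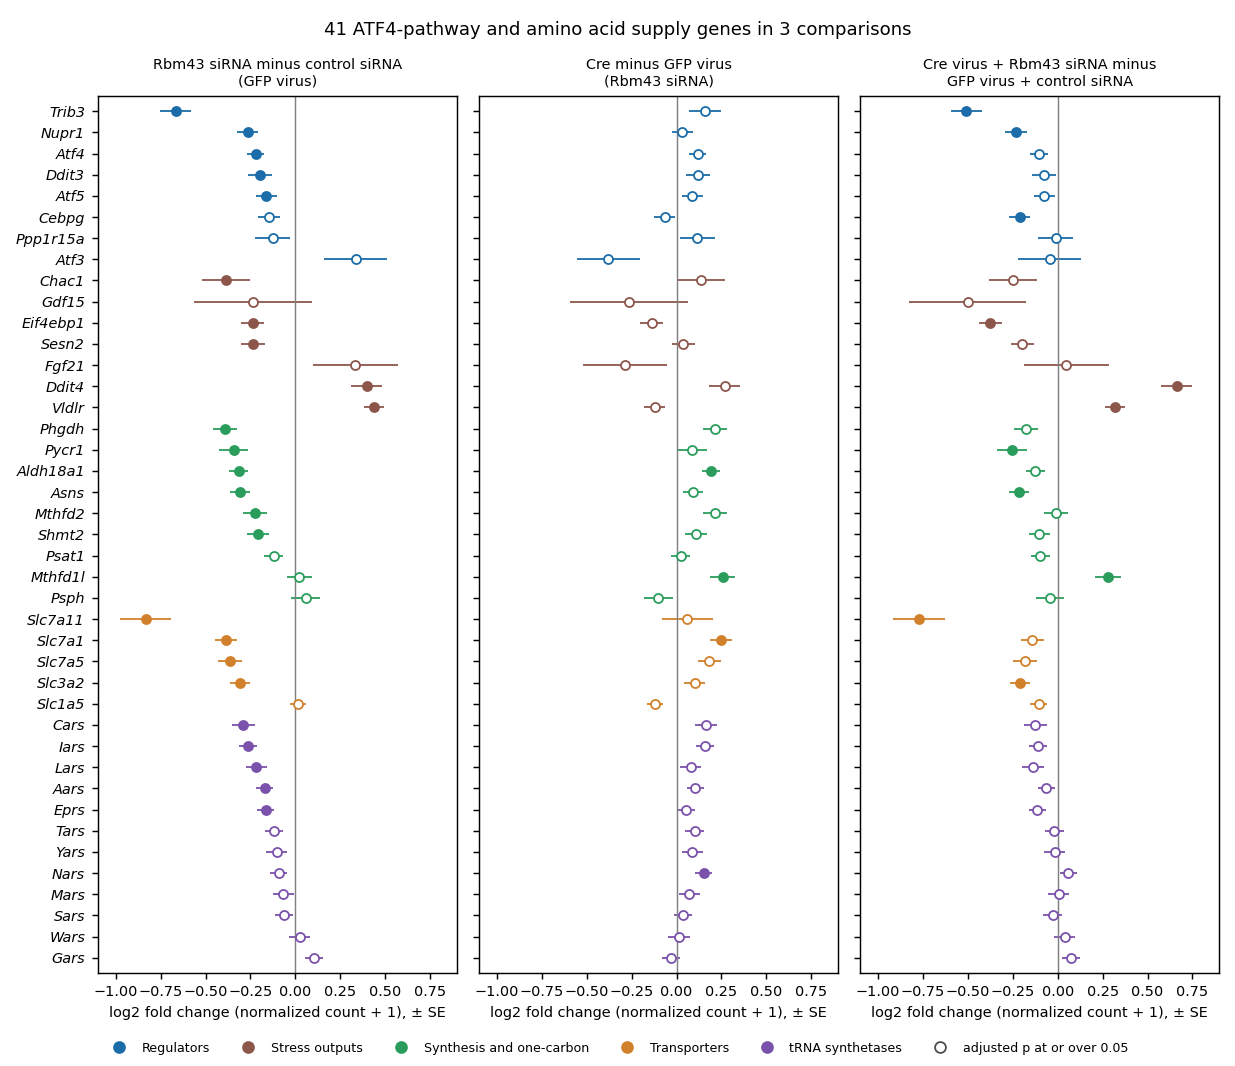
Log2 fold change on the log2(normalized count + 1) scale, with its standard error, of each of the 41 members (rows, coloured by role) in the 3 comparisons (columns), filled where the adjusted p is under 0.05. With Rbm43 siRNA 23 members fell and 2 rose; with Cre virus the 4 filled points lie to the right of 0.

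Among the 8 regulators, 5 fell with Rbm43 siRNA (62.5%, against 9.76% of all genes tested). Atf4 (chromosome 15, 80255184 to 80257541, plus strand, mm10) had normalized counts of 3299 and 3137 in the Rbm43 siRNA libraries, against 3772 and 3728 in the control siRNA libraries. The groups did not overlap, and Atf4 fell by 0.22 ± 0.05 (log2, SE; limma adjusted p = 0.00234), a small change in an abundant mRNA. Trib3 (chromosome 2, 152337422 to 152344032, minus strand) is a pseudokinase that is induced by ATF4 and restrains it. It had 446 and 555 normalized counts in the Rbm43 siRNA libraries, against 772 and 809 in the control siRNA libraries. Trib3 fell by 0.67 ± 0.09 (adjusted p = 1.26e-05), and by 0.51 without Rbm43 siRNA replicate 1, the lower of the pair.

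Nupr1, a small stress-induced chromatin protein, had 1311 and 1343 normalized counts in the Rbm43 siRNA libraries, against 1529 and 1665 in the control siRNA libraries, and fell by 0.27 ± 0.06 (adjusted p = 0.00270). Ddit3, which encodes the death-promoting partner CHOP, and Atf5, an ATF4 relative linked to mitochondrial protein stress, fell by 0.20 and 0.16. Their adjusted p were 0.0450 and 0.0488. Neither call held with DESeq2 (on reads recovered from the table), with upper-quartile scaling or without Rbm43 siRNA replicate 1 or 2. Without control siRNA replicate 1 the value of Atf5 was −0.07, and −0.25 without control siRNA replicate 2. Cebpg, a binding partner of ATF4, had 1238 and 1246 normalized counts in the Rbm43 siRNA libraries, against 1337 and 1413 in the control siRNA libraries (log2 fold change −0.15 ± 0.06, adjusted p = 0.0882). Ppp1r15a, which brings the phosphatase to eIF2, overlapped between groups (409 and 340 with Rbm43 siRNA, against 383 and 432 with control siRNA). Atf3, the stress-induced repressor, was low, with 95.2 and 89.5 normalized counts in the Rbm43 siRNA libraries, against 72.8 and 73.0 in the control siRNA libraries (adjusted p = 0.185).

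Exons of Ddit3 and of the synthetase gene Mars overlap by 68 bases on opposite strands. The strand setting of the authors' counting is not given in the sources used here, so reads in that stretch cannot be assigned with certainty.

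The 7 stress outputs went both ways. Vldlr, the very-low-density lipoprotein receptor, and Ddit4, an inhibitor of the kinase mTORC1, rose with Rbm43 siRNA. Vldlr (chromosome 19, 27216484 to 27254231, plus strand) had 3981 and 3926 normalized counts in the Rbm43 siRNA libraries, against 2737 and 3107 in the control siRNA libraries, a rise of 0.44 ± 0.06 (adjusted p = 1.07e-05). Ddit4 had 2913 and 2603 with Rbm43 siRNA, against 2401 and 1822 with control siRNA, and rose by 0.40 ± 0.09 (adjusted p = 0.00208). For both genes the groups were apart, and the control libraries differed from each other more than the Rbm43 siRNA libraries did. The rise of Ddit4 was 0.20 without control siRNA replicate 2 and 0.60 without control siRNA replicate 1, and it was not called by DESeq2.

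Eif4ebp1, which encodes a repressor of cap-dependent translation, had 1712 and 1670 normalized counts in the Rbm43 siRNA libraries, against 2132 and 1864 in the control siRNA libraries. It fell by 0.24 ± 0.06 (adjusted p = 0.00944), a call lost without control siRNA replicate 1 (−0.14) or Rbm43 siRNA replicate 2 (−0.22). Sesn2, a sensor of leucine that restrains mTORC1, had 752 and 797 with Rbm43 siRNA, against 886 and 936 with control siRNA, and fell by 0.23 ± 0.07 (adjusted p = 0.0132), a call lost with DESeq2 and without Rbm43 siRNA replicate 1. Chac1, which degrades glutathione, fell by 0.39 ± 0.13 (adjusted p = 0.0432), and its call was lost in 12 of 17 alternative fits. The hormone genes Fgf21 and Gdf15 were low, at 69.9 and 43.8 and at 26.2 and 22.4 normalized counts with Rbm43 siRNA. With control siRNA they had 43.7 and 43.8 and 21.8 and 37.7, and neither passed the test.

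Of 9 enzymes of amino acid synthesis and one-carbon metabolism, 6 fell with Rbm43 siRNA (66.7%, against 9.76% of all genes). The other 3 did not pass. The median log2 fold change was −0.22. Phgdh, the first enzyme of serine synthesis, had 608 and 609 normalized counts in the Rbm43 siRNA libraries, against 796 and 800 in the control siRNA libraries. Each group was tight, and Phgdh fell by 0.39 ± 0.07 (adjusted p = 2.14e-04). Aldh18a1, which commits glutamate to proline and ornithine, had 1847 and 1846 with Rbm43 siRNA, against 2291 and 2308 with control siRNA, and fell by 0.32 ± 0.05 (adjusted p = 1.20e-04).

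Asns, asparagine synthetase, had 2003 and 2195 normalized counts in the Rbm43 siRNA libraries, against 2670 and 2523 in the control siRNA libraries, and fell by 0.31 ± 0.06 (adjusted p = 4.48e-04). Pycr1, the mitochondrial enzyme that completes proline, had 462 and 477 with Rbm43 siRNA, against 557 and 638 with control siRNA, and fell by 0.34 ± 0.08 (adjusted p = 0.00452). The mitochondrial folate enzymes Mthfd2 and Shmt2 fell by 0.22 and 0.21, and DESeq2 called neither. Without Rbm43 siRNA replicate 1 the value of Mthfd2 was −0.14 and its call was lost. The enzymes of the serine pathway that follow Phgdh did not pass. Psat1, the aminotransferase, had 2211 and 2370 normalized counts in the Rbm43 siRNA libraries, against 2491 and 2490 in the control siRNA libraries (log2 fold change −0.12, adjusted p = 0.110). The phosphatase Psph overlapped between groups, at 563 and 647 with Rbm43 siRNA, against 602 and 559 with control siRNA. Exons of Psph share 10.4% of their length with Cct6a on the opposite strand, so its reads are uncertain in part. Phgdh has an annotated processed pseudogene, Phgdh-ps1, and how reads alike in both were counted is not given. The difference between Phgdh and Psat1 or Psph was not itself tested.

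Of the 5 transporters, 4 fell with Rbm43 siRNA (80%, against 9.76% of all genes) and Slc1a5 did not pass. Their median log2 fold change was −0.36. Slc7a11 (chromosome 3, 49892526 to 50443614, minus strand), the light chain of the cystine and glutamate exchanger and the member with paired matches in its promoter, had 103 and 132 normalized counts in the Rbm43 siRNA libraries, against 196 and 222 in the control siRNA libraries. It fell by 0.83 ± 0.14 (adjusted p = 2.45e-04), and by 0.66 to 1.01 when single libraries were left out. Slc7a1, the transporter of arginine and lysine, had 958 and 1026 with Rbm43 siRNA, against 1344 and 1251 with control siRNA, and fell by 0.39 ± 0.06 (adjusted p = 1.18e-04). Both chains of the transporter of leucine and other large neutral amino acids fell as well. Slc7a5, its catalytic light chain, had 956 and 1086 normalized counts in the Rbm43 siRNA libraries, against 1321 and 1301 in the control siRNA libraries, and fell by 0.36 ± 0.07 (adjusted p = 3.64e-04). Slc3a2, the heavy chain that brings both Slc7a5 and Slc7a11 products to the membrane, had 1458 and 1503 with Rbm43 siRNA, against 1861 and 1809 with control siRNA, and fell by 0.31 ± 0.06 (adjusted p = 4.32e-04). The glutamine transporter Slc1a5 had 5613 and 5719 with Rbm43 siRNA, against 5639 and 5581 with control siRNA, a log2 fold change of 0.01 with a 95% interval of −0.08 to 0.11.

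Of 12 cytosolic tRNA synthetases, the enzymes that load amino acids onto tRNAs, 5 fell with Rbm43 siRNA (41.7%, against 9.76% of all genes). The other 7 did not pass. The median log2 fold change was −0.11, closer to 0 than in the other roles. Cars, for cysteine, had 1120 and 1116 normalized counts in the Rbm43 siRNA libraries, against 1290 and 1447 in the control siRNA libraries, and fell by 0.29 ± 0.06 (adjusted p = 0.00211). Iars, for isoleucine, had 2094 and 2139 with Rbm43 siRNA, against 2526 and 2560 with control siRNA, and fell by 0.26 ± 0.05 (adjusted p = 6.64e-04). For both the groups were apart. Lars, for leucine, had 1774 and 1868 with Rbm43 siRNA, against 2000 and 2241 with control siRNA, and fell by 0.22 ± 0.06 (adjusted p = 0.0112), a call lost without Rbm43 siRNA replicate 1 (−0.18) or control siRNA replicate 2 (−0.14). Aars, for alanine, had 3823 and 3922 with Rbm43 siRNA, against 4342 and 4372 with control siRNA, and fell by 0.17 ± 0.05 (adjusted p = 0.0132), a call lost without Rbm43 siRNA replicate 1. Exons of Aars share 14.3% of their length with Exosc6 on the same strand, so its reads are uncertain in part. Eprs, the bifunctional enzyme for glutamate and proline, fell by 0.17, a call lost in 7 of 17 alternative fits. Gars and Wars, for glycine and tryptophan, lay slightly above control (log2 fold changes 0.10 and 0.02) without passing.

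The number of members called lower depended on the fit. It was 6 in limma without the mean-variance trend, which called 427 of all genes lower, against 1387 in the main fit. Fits that left out a single library are described at the end. The calls of Trib3, Vldlr, Phgdh, Aldh18a1, Slc7a11, Slc7a1 and Iars, 7 of the 25, held in each of the 17 alternatives.

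**Figure D2:**
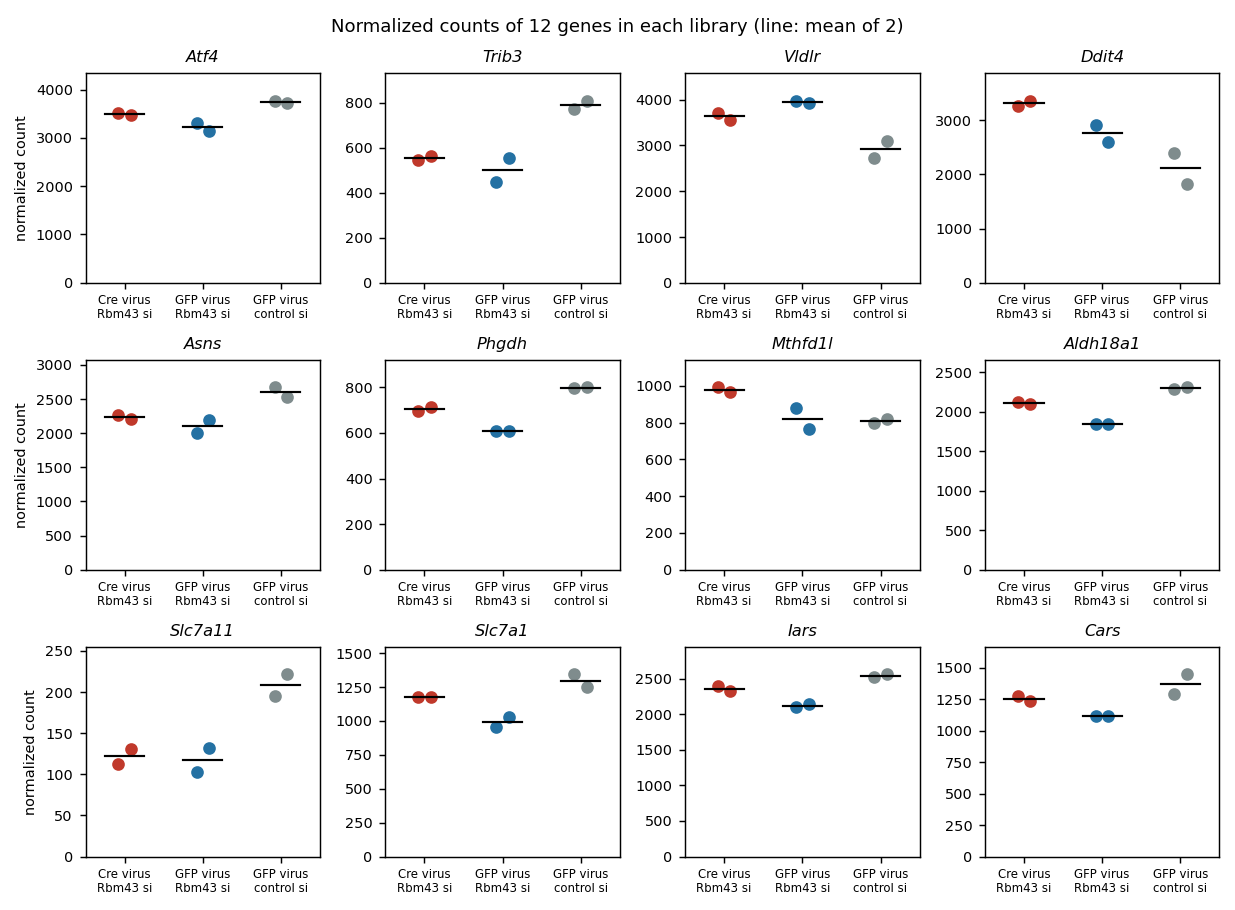
Normalized count (y axis, from 0) of 12 members in each library, with the mean of the 2 libraries of a group as a line; groups run from Cre virus with Rbm43 siRNA at left, through GFP virus with Rbm43 siRNA, to GFP virus with control siRNA. Trib3 and Slc7a11 are lower in all 4 Rbm43 siRNA libraries than in the control libraries, Vldlr and Ddit4 are higher, and Mthfd1l is highest in the Cre virus libraries.

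Cre virus, compared with GFP virus in cells that all had Rbm43 siRNA, showed small rises in a few amino acid supply genes. By limma (1208 genes called in all, 8.5% of those tested) 4 of 41 members rose (9.76%), against 2.62% of all genes tested: Mthfd1l, Slc7a1, Aldh18a1 and Nars. No member fell by limma, and 4 had a lower level at an unadjusted p under 0.05; edgeR and DESeq2 on the recovered reads also called 0 lower, where limma called 5.88% of all genes lower. Total scaling moved the split over all genes, which was 372 higher and 836 lower, to 565 higher and 734 lower. The median log2 fold change was 0.09, against 0.00 over all genes tested. Both Cre virus libraries lay above both GFP virus libraries for 23 members (56.1%), where 26.2% of all genes did, and below them for 5 (12.2%), where 27.5% did. This comparison shares its GFP virus libraries with the one above, in which they have the opposite sign, so its values are given beside the others and not as separate evidence. Here 7 of 10 adipocyte markers fell and 5 of 7 mural markers rose.

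Mthfd1l, which makes formate in mitochondria, had 992 and 969 normalized counts with Cre virus, against 882 and 763 with GFP virus. It rose by 0.26 ± 0.07 (adjusted p = 0.0287), a call lost with DESeq2, without either Cre virus library and without GFP virus replicate 2 of the Rbm43 siRNA cells, where the value was 0.15. Slc7a1 had 1178 and 1174 with Cre virus, against 958 and 1026 with GFP virus, and rose by 0.25 ± 0.06 (adjusted p = 0.0159). The Cre virus libraries of both genes lay closer together than the GFP virus libraries. Aldh18a1 had 2124 and 2096 with Cre virus, against 1847 and 1846 with GFP virus, and rose by 0.19 ± 0.05 (adjusted p = 0.0215). Nars, for asparagine, had 4909 and 4979 with Cre virus, against 4394 and 4510 with GFP virus, and rose by 0.15 ± 0.05 (adjusted p = 0.0495), a call lost in 9 of 17 alternatives, among them edgeR, DESeq2 and the fit with a replicate block. In all 4 the groups were apart.

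By p, the next genes were Mthfd2, Phgdh and Ddit4, whose log2 fold changes lay within or above the range of the members called. Ddit4 had 3264 and 3364 normalized counts with Cre virus, against 2913 and 2603 with GFP virus (log2 fold change 0.27 ± 0.09, adjusted p = 0.0642). Mthfd2 had 1005 and 1044 with Cre virus, against 834 and 935 with GFP virus (0.21 ± 0.07, adjusted p = 0.0514), and Phgdh had 696 and 714 with Cre virus, against 608 and 609 with GFP virus (0.21 ± 0.07, adjusted p = 0.0541). Of the 17 alternatives, 9 called Mthfd2 higher, 7 Phgdh and 6 Ddit4, edgeR among them for all 3 genes. Atf4 had 3510 and 3469 with Cre virus, against 3299 and 3137 with GFP virus, a log2 fold change of 0.12 ± 0.05 (adjusted p = 0.164). Trib3 and Slc7a11, the members with the lowest values relative to control, had log2 fold changes of 0.16 and 0.06 and overlapping groups. Atf3 had 81.2 and 61.5 with Cre virus, against 95.2 and 89.5 with GFP virus (−0.38 ± 0.17, adjusted p = 0.218).

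None of the 4 calls held in all 17 alternatives. The number called over the whole table also changed with the library left out, as described at the end. Without either Cre virus library 0 members were called higher (limma; 12 had an unadjusted p under 0.05 with all libraries, and edgeR called 6 and DESeq2 2), 1 or 2 were without GFP virus replicate 1 or 2 of the Rbm43 siRNA cells, and 10 were without either control siRNA library.

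Cre virus with Rbm43 siRNA, compared with GFP virus and control siRNA, differs in both treatments. This comparison shares its control libraries with the one for Rbm43 siRNA and its Cre virus libraries with the one for Cre virus. Its values are therefore not separate evidence. Limma called 2096 genes (14.7% of those tested), 1203 higher and 893 lower, and 1499 higher and 590 lower with upper-quartile scaling. Of 41 members, 8 fell (19.5%, against 6.28% of all genes) and 3 rose (7.32%, against 8.47%). The median log2 fold change was −0.10, against 0.00 over all genes tested. The members that fell were Trib3, Nupr1, Cebpg, Eif4ebp1, Asns, Pycr1, Slc7a11 and Slc3a2, and those that rose were Ddit4, Vldlr and Mthfd1l. Both libraries with Cre virus and Rbm43 siRNA lay below both control libraries for 23 members (56.1%), where 27.2% of all genes did, and above them for 5 (12.2%), where 27.4% did. In this comparison 3 of 10 adipocyte markers rose and 2 fell, and 6 of 7 mural markers rose and 1 fell. Of 5 endothelial markers tested 1 rose by limma (20%, against 8.47% of all genes), and DESeq2 called 0. It was the receptor gene Kdr (149.8 and 159.9 normalized counts with Cre virus and Rbm43 siRNA, against 106 and 96.2 with GFP virus and control siRNA). Pecam1 and Cdh5 were higher without passing (log2 fold changes 0.50 and 0.64), and Tek and Emcn were lower without passing (−0.11 and −0.25).

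Slc7a11 had 113 and 131 normalized counts with Cre virus and Rbm43 siRNA, against 196 and 222 with GFP virus and control siRNA, and fell by 0.77 ± 0.14 (adjusted p = 8.73e-04). Trib3 had 546 and 565 with Cre virus and Rbm43 siRNA, against 772 and 809 with GFP virus and control siRNA, and fell by 0.51 ± 0.09 (adjusted p = 4.43e-04). Eif4ebp1 had 1496 and 1577 with Cre virus and Rbm43 siRNA, against 2132 and 1864 with GFP virus and control siRNA, and fell by 0.38 ± 0.06 (adjusted p = 3.38e-04). Of these 3 genes, each had its libraries apart from those of the control group.

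Cebpg had 1225 and 1148 with Cre virus and Rbm43 siRNA, against 1337 and 1413 with GFP virus and control siRNA (fell by 0.21 ± 0.06, adjusted p = 0.0205), and its call was lost with DESeq2, without control siRNA replicate 2 and without either Cre virus library. Nupr1 fell by 0.23, Slc3a2 and Asns by 0.21 and Pycr1 by 0.26, calls that were lost without either Cre virus library. Those of Nupr1 and Pycr1 (−0.16) were also lost without control siRNA replicate 2, and that of Pycr1 without either library of GFP virus with Rbm43 siRNA. Ddit4 had 3264 and 3364 with Cre virus and Rbm43 siRNA, against 2401 and 1822 with GFP virus and control siRNA, the largest rise in the module at 0.66 ± 0.09 (adjusted p = 2.40e-05). Vldlr had 3711 and 3558 with Cre virus and Rbm43 siRNA, against 2737 and 3107 with GFP virus and control siRNA, and rose by 0.32 ± 0.06 (adjusted p = 6.46e-04), lost without Cre virus replicate 1.

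Mthfd1l had 992 and 969 with Cre virus and Rbm43 siRNA, against 797 and 818 with GFP virus and control siRNA, and rose by 0.28 ± 0.07 (adjusted p = 0.0111), a call lost without either Cre virus library. Mthfd2, its neighbour in the mitochondrial folate cycle, had 1005 and 1044 with Cre virus and Rbm43 siRNA, against 1025 and 1039 with GFP virus and control siRNA. These values overlapped, with a log2 fold change of −0.01 and a 95% interval of −0.15 to 0.13. Atf4 had 3510 and 3469 with Cre virus and Rbm43 siRNA, against 3772 and 3728 with GFP virus and control siRNA, and did not pass (−0.10 ± 0.05, adjusted p = 0.175). None of the 12 synthetases was called by limma, where the log2 fold changes lay between −0.14 and 0.07; 3 had an unadjusted p under 0.05, and edgeR and DESeq2 also called 0. The number of members that fell was 4 with upper-quartile scaling, 5 with DESeq2, and 3 without either Cre virus library. The number that rose was 1 without Cre virus replicate 1.

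Levels were also set on 1 scale by dividing normalized counts by exon length and by the mean library total (the scale of RPKM). The level of Atf5 was 111 with Cre virus and Rbm43 siRNA, 104 with GFP virus and Rbm43 siRNA and 117 with control siRNA, the highest of the members in all 3 groups. Slc7a11 was the lowest, at 0.451 with Cre virus and Rbm43 siRNA, 0.435 with GFP virus and Rbm43 siRNA and 0.773 with control siRNA. Next came Gdf15, at 0.573 with Cre virus and Rbm43 siRNA, 0.677 with GFP virus and Rbm43 siRNA and 0.830 with control siRNA. Exon lengths are the union over GENCODE M21 transcripts, which understates genes with long unused exons, and the annotation the authors counted on is not given in the sources used here.

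Members with and without a promoter match of the response element were described side by side. With Rbm43 siRNA against control siRNA, 8 of the 14 members with a match fell and 1 rose, with a median log2 fold change of −0.22. Of the 20 members with a window and no match, 11 fell and 1 rose, with a median of −0.18. Over the whole module 56.1% fell and 4.88% rose, and over all genes tested 9.76% fell and 13.5% rose. The members at the extremes, Slc7a11 and Trib3 at the bottom and Vldlr at the top, all held a match. Among the members called next to them, Chac1 (−0.39) held a match, while Ddit4 (0.40), Phgdh (−0.39) and Slc7a1 (−0.39) had a window and no match. Slc7a5 (−0.36) had no window. For Cre virus against GFP virus the medians were 0.09 with a match and 0.10 without. For both treatments against control they were −0.09 and −0.10. Atf3, Fgf21, Gars, Tars and Yars also held a match and did not pass in any comparison.

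**Figure D3:**
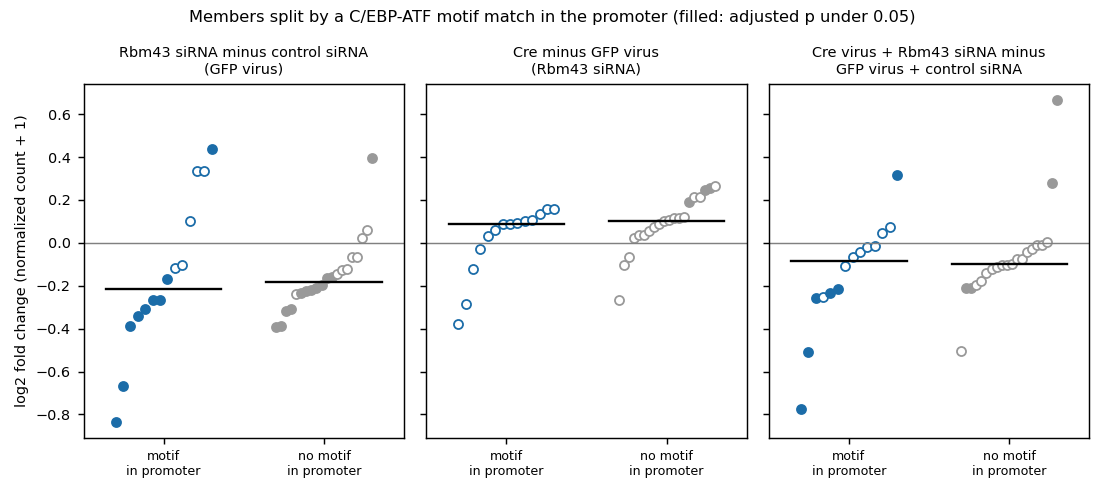
Log2 fold change on the log2(normalized count + 1) scale of the 14 members with a match of the response element in the promoter window (left in each panel) and the 20 without (right), with the median as a line and filled points where the adjusted p is under 0.05. The medians lie at −0.22 and −0.18 for Rbm43 siRNA against control siRNA.

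Most genes of the machinery above ATF4 did not pass at the mRNA level with Rbm43 siRNA, and a few rose. The list held 15 tested genes: those of the eIF2 kinases, eIF2 and its exchange factor eIF2B, with Gcn1l1, Oma1 and Ppp1r15b. Of the 15, 4 rose (26.7%) with Rbm43 siRNA against control siRNA, where 13.5% of all genes did. The median log2 fold change of the list was 0.03. DESeq2 called 1 of the list higher (1267 over all genes), and limma without the mean-variance trend 0 (877 over all genes). By limma 0 were called lower, and 3 were lower at an unadjusted p under 0.05. The 4 that rose included Eif2ak2, the interferon-induced double-stranded RNA kinase PKR, at 0.32 (2511 ± 39.7 normalized counts with Rbm43 siRNA against 2015 ± 169 with control siRNA, SD, n = 2 each; adjusted p = 4.83e-04). The others were the eIF2B subunit genes Eif2b1 (adjusted p = 0.0474), Eif2b2 and Eif2b4 at 0.21, 0.28 and 0.26. The eIF2B subunit genes Eif2b3 and Eif2b5 did not pass (0.07 and −0.06). The kinases for amino acid shortage and for misfolded protein were close between groups. Eif2ak4 averaged 647 ± 44.6 with Rbm43 siRNA and 623 ± 0.0499 with control siRNA, and Eif2ak3 averaged 589 ± 16.1 with Rbm43 siRNA and 599 ± 6.88 with control siRNA (SD, n = 2 each). Eif2ak3, Eif2ak4, Eif2b1, Eif2b3 and Eif2b5 were named after their values were seen. For Cre virus against GFP virus no gene of this list was called by limma, edgeR or DESeq2 (3 had an unadjusted p under 0.05 by limma). For both treatments against control 2 rose (13.3%) and 1 fell (6.67%), against 8.47% of all genes higher and 6.28% lower. The one that fell was Ppp1r15b, the constitutive partner of the eIF2 phosphatase, by 0.26 (adjusted p = 0.00113).

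Wider lists of amino acid genes, outside the module, were mixed. Of 18 other amino acid transporters tested, 3 fell (16.7%) and 1 rose (5.56%) with Rbm43 siRNA, against 9.76% of all genes lower and 13.5% higher. DESeq2 and limma without the trend each called 1 lower. Slc1a4, which carries alanine and serine, fell by 0.27, and Slc6a9, for glycine, fell by 0.30, while Slc7a6 rose by 0.23. Slc38a2, the inducible transporter of small neutral amino acids, rose by 0.21 with Cre virus against GFP virus (5274 ± 44.2 normalized counts with Cre virus against 4558 ± 164 with GFP virus, SD, n = 2 each; adjusted p = 0.00838). Of 21 other enzymes of amino acid and one-carbon metabolism, 3 rose (14.3%) and 2 fell (9.52%) with Rbm43 siRNA, shares near those over all genes. With Cre virus against GFP virus 4 fell (19%), against 5.88% of all genes, and DESeq2 called 1 of the list lower. Glul, glutamine synthetase, rose by 0.66 ± 0.05 with Rbm43 siRNA (13217 ± 49.0 normalized counts with Rbm43 siRNA against 8375 ± 439 with control siRNA, SD, n = 2 each; adjusted p = 1.10e-08). The glycine cleavage gene Gcsh rose by 0.24 with Rbm43 siRNA, and it fell by 0.38 with Cre virus against GFP virus. Shmt1, the cytosolic counterpart of Shmt2, fell by 0.74, at 59.4 ± 7.89 normalized counts with Cre virus against 99.5 ± 2.15 with GFP virus (SD, n = 2 each; adjusted p = 0.00802). Gpt, an alanine aminotransferase, fell by 0.30 with Cre virus against GFP virus.

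Synthetases of the cytosol and of mitochondria had medians of opposite sign. With Rbm43 siRNA against control siRNA, the median log2 fold change was −0.11 for the 12 members, −0.05 for 11 other cytosolic synthetase genes and partners, and 0.15 for 17 mitochondrial synthetases. Among the other cytosolic genes Vars fell by 0.28 and the remaining 10 did not pass. Among the mitochondrial genes 6 rose (35.3%) and 1 fell (5.88%), against 13.5% of all genes higher and 9.76% lower. DESeq2 called 2 higher and 0 lower, and limma without the trend 3 higher and 0 lower. Wars2 rose by 0.42, Aars2 by 0.43, Iars2 by 0.27 and Fars2 by 0.27, and the one that fell was Hars2, by 0.25, also named after its values were seen. The cytosolic and mitochondrial enzymes for isoleucine thus moved apart: Iars averaged 2116 ± 32.0 with Rbm43 siRNA and 2543 ± 24.0 with control siRNA, and Iars2 averaged 2688 ± 160 with Rbm43 siRNA and 2221 ± 52.9 with control siRNA (SD, n = 2 each). For Cre virus against GFP virus the medians were 0.08 for the members, 0.04 for the other cytosolic genes and −0.15 for the mitochondrial genes, of which Fars2 fell by 0.47 and Aars2 by 0.41. For both treatments against control the medians were −0.02, −0.05 and −0.04, and limma, edgeR and DESeq2 called no gene of the 3 groups (unadjusted p under 0.05 by limma for 3, 0 and 4). The difference between the groups of genes was described and not tested.

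**Figure D4:**
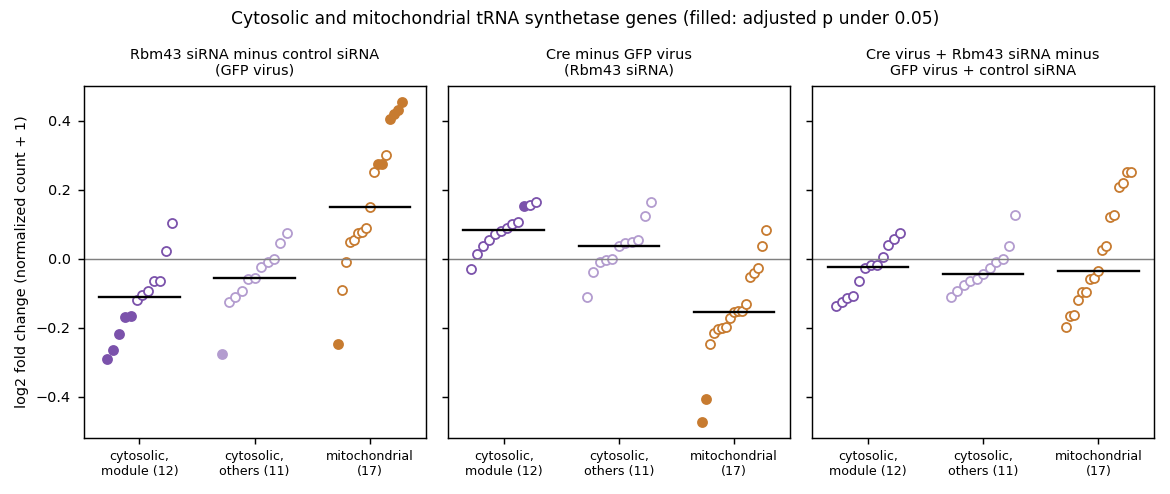
Log2 fold change on the log2(normalized count + 1) scale of the 12 cytosolic tRNA synthetases of the module, 11 other cytosolic synthetase genes and partners, and 17 mitochondrial synthetases, in the 3 comparisons; lines are medians and filled points have an adjusted p under 0.05. With Rbm43 siRNA the medians are −0.11, −0.05 and 0.15.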

How the data were processed

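The authors deposited 1 table of normalized counts, a signal per gene in which each library's reads had been divided by a single factor. The submitters' processing notes name fastp 0.23.2, STAR 2.7.8, build mm10 and DESeq2 2.11.40.7 without roles; no gene counter or strand setting is stated for the counts in what was used here. All values (100%) were whole multiples of 1 read's worth, within 0.01 read, so whole reads were recovered.

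The main test was limma 3.58.1 (R 4.3.3, trended variance) on log2(normalized count + 1), a scale that understates changes of low genes. A single model of 3 group means over the 6 libraries left 3 residual degrees of freedom. Each gene's variance was drawn toward a trend over all genes tested, so standard errors and p-values rest only partly on its own libraries. The model covered 14211 genes, those reaching 10 normalized counts in 2 or more libraries. The p-values were two-sided, adjusted by Benjamini-Hochberg over all these genes, and called under 0.05. On the recovered reads, edgeR 4.0.16 called 3263, 1336 and 2111 genes for Rbm43 siRNA against control siRNA, Cre against GFP virus, and both treatments against control; DESeq2 1.42.0 was another alternative. The procedure was also run on simulated data. Their spread followed the trend alone, so that run cannot show how the calls depend on the trend.

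Values in every library were given for Atf4 and for up to 4 members per role with the smallest p in any comparison, and values for other members that passed; some further members were given by value after being seen. Outside the module up to 4 genes per list were named by the same rule. Members and lists were chosen with earlier results of these data known, and the motif after the fits. Promoters came from RefSeq (GRCm38.p6) and gene positions from GENCODE M21. A further promoter sequence is not reported here.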

Additional observations from a re-analysis of the deposited data

How the results depend on the processing

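No called member changed sign in any of the 17 alternatives. Limma without the mean-variance trend called the fewest genes in each comparison. With Rbm43 siRNA against control siRNA it called 1304 genes, with 1 member higher and 6 lower; for Cre against GFP virus it called 0 genes and 0 members (2355 genes and 8 members at an unadjusted p under 0.05; edgeR called 1336 genes and DESeq2 838); and for both treatments against control it called 433 genes, with 0 members higher and 0 lower (3 and 10 at an unadjusted p under 0.05). With no filter the counts were 1 member higher with Rbm43 siRNA, 609 genes and 0 members higher with Cre virus, and 1251 genes and 4 members lower with both treatments. DESeq2 called 2035 genes and 1 member higher with Rbm43 siRNA, 2 members higher with Cre virus, and 1220 genes and 5 members lower with both treatments. With only the 2 groups compared, Cre against GFP virus gave 2083 genes, 10 members higher and 3 lower. Total scaling gave 8 members higher with Cre virus, and 1678 genes higher and 1679 lower over the whole table with Rbm43 siRNA. Upper-quartile scaling gave 4 members lower with both treatments. The cause of these differences was not tested.

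When single libraries were left out (a lone library was assumed to vary like the other groups), the genes called ranged from 2115 to 3633 with Rbm43 siRNA, from 312 to 2068 with Cre virus, and from 770 to 2654 with both. Members higher ranged from 2 to 3, 0 to 10 and 1 to 3, and members lower from 15 to 20, 0 to 3 and 3 to 12, in the same order. The 0 came from limma without either Cre virus library, for Cre against GFP virus.

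Same-numbered libraries showed little common deviation: their deviations from group means correlated at 0.019, −0.042 and −0.037 over genes. This cannot show whether they shared a culture or a batch, which the labels do not give. The fit with a replicate block called 3412, 1304 and 2214 genes. It called 2, 5 and 3 members higher and 23, 0 and 9 lower in the 3 comparisons. For Cre against GFP virus the block added Mthfd2 and Ddit4 and ended the call of Nars.

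With 2 libraries a group, members below about 100 normalized counts (Atf3, Fgf21, Gdf15) had standard errors of 0.17, 0.24 and 0.33 on the log2 scale, so most changes of the size seen elsewhere in the module were not detectable for them.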
